A study of Mus musculus with 14 samples.

Results

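The genes described here encode the factors that start and extend protein synthesis and the aminoacyl-tRNA synthetases that load tRNAs with amino acids. They were chosen by symbol alone: Eif followed by a digit, Eef, or an amino acid letter code followed by ars or ars2. A gene was taken only where the platform annotation gave its probe that single symbol, and Eif2ak1, Eif2s3x and Eif2s3y were left out. The rule found 60 genes among 6286 named genes tested, which were themselves part of 13045 tested features. All 60 were measured and passed the filter, a value on at least 3 arrays of each strain. Another 6 names of this kind (Aars, Eef2, Eef2kmt, Eif3j1, Eif4a2 and Eif5b) stood only on probes with several symbols, and these genes are not analysed here. Eef1a1, Eif4g1, Eif2s1, Eif2ak2, Eif2ak3 and Eif4ebp1 are likewise not analysed here.

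Spleen RNA of AcB55 mice was hybridised on 6 arrays and spleen RNA of AcB61 mice on 8 arrays. Both strains are recombinant congenic, meaning that A/J mice make up most of their genome and C57BL/6 mice the rest. The second channel of every array held spleen RNA of A/J mice, the parental strain, and A/J was never hybridised against A/J. The series title concerns resistance to malaria, but the labels give no infection, treatment, sex or age. Whether one mouse or one pool of RNA served several arrays is not stated either. The arrays carry cloned cDNAs, and each value is the deposited log ratio of the channels, taken as log2. A positive value was likely higher in the strain than in A/J, because on all 14 arrays channel 1 is labelled with the strain and channel 2 with A/J. Neither the log base nor the dye of a channel is given in the sources used here. The p-values rest on how far arrays scatter around the mean of their strain, which can be technical. This spread was estimated from the arrays of both strains together. A p-value of AcB55 thus also depends on the scatter among AcB61 arrays, and the reverse, whereas each SD given is that of its own strain. The p-values do not cover variation among A/J mice. Both comparisons with A/J share this kind of reference. In bulk tissue, fewer cells of a type and less RNA per cell cannot be told apart. The ratios carry no level of a gene, so the presence of spleen markers was not checked.

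Translation starts when eIF2 delivers the initiator tRNA to the small ribosomal subunit, eIF3 holds the subunit ready, and the eIF4 factors bind the cap of the mRNA and unwind its leader. Elongation factors then bring loaded tRNAs to the ribosome and move it along, and synthetases supply those tRNAs separately in the cytosol and in mitochondria. The spleen of adult mice makes red cells as well as housing immune cells, and dividing red cell precursors are rich in the translation machinery.

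The arrays differed in ways the strain did not explain. Across all features, AcB61 replicates 2, 6 and 8 correlated with each other at 0.788 to 0.833 and replicates 3, 5 and 7 at 0.704 to 0.795. Between these arrays the correlation was -0.0894 to 0.151. AcB61 results are therefore also given without replicates 2, 6 and 8 and without replicates 3, 5 and 7, arrays chosen after seeing these correlations. Genes of other kinds moved in the same spleens. Of 53 cell cycle and DNA replication genes, 39 were higher than A/J in each strain, with medians of the list per array of 0.33 to 0.71 in AcB55 and 0.22 to 0.64 in AcB61. In AcB55, 2 of these genes (Cks1b and Gmnn) were lower, and in AcB61 0 were. Of 15 globin and haem synthesis genes, 10 rose in AcB55 and 12 in AcB61. AcB55 replicates 1 and 2 stood apart in some of these lists. The median of the haem list was 0.65 and 0.70 on them, against 0.11 to 0.31 on the other AcB55 arrays, and that of 4 granulocyte genes was 1.33 and 1.70, against -0.05 to 0.16. Granulocyte genes rose for 1 of 4 in AcB55 and 2 of 4 in AcB61, and 7 of 11 genes of stroma, vessels and fat were lower in each strain. In AcB61, 1 granulocyte gene (Hdc) fell and 1 stromal gene (Col3a1) rose. Of 58 genes of cytosolic ribosomal proteins, 38 fell and 0 rose in AcB55 with a median of -0.34, against 2 lower and 2 higher in AcB61 with a median of -0.02. Macrophage genes were lower for 7 of 12 in AcB55 and for 5 of 12 in AcB61, and B and plasma cell genes for 4 of 6 and 3 of 6. Some macrophage genes were higher, 1 in AcB55 (Ctsb) and 2 in AcB61 (Ctsb and Ctsd). The only pancreas gene measured, Cpa1, ranged from -3.58 to 2.37 over the AcB55 arrays. The part of these other genes in the results below was not tested.

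In AcB55, 9 of the 60 translation genes (15%) were higher than in A/J, where 9.77% of all features were, and 7 (11.7%) were lower, against 10.9% of all features. In either direction 20.7% of all features passed. The share of lower genes was thus near the background. Those that rose were Eif5a, Eif4a1, Eif3j2, Eif5, Eif3c, Eif3a, Eef2k, Eif4g2 and Iars, and those that fell were Eif3f, Eef1b2, Eif3h, Eif3k, Eif4e3, Eif3e and Wars. In AcB61, 17 (28.3%) were higher, where 10.5% of all features were. None of the 60 was lower in AcB61 by limma after adjustment, against 13.3% of all features (23.8% passed in either direction), and 0 were lower at an unadjusted p under 0.05. The median of the 60 genes was 0.08 in AcB55 and 0.11 in AcB61, against -0.0019 and -0.00067 over all features. The genes that rose in both strains were Eif3a, Eif3c, Eif3j2, Eif4a1, Eif5, Eif5a and Iars, in comparisons that share the A/J reference. On every AcB55 array 13 of the 60 genes (21.7%) were above 0 and 4 (6.67%) below, against 10.6% and 13.2% of all features. On every AcB61 array 11 (18.3%) were above 0 and 0 below, against 6.52% and 7.69% of all features.

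**Figure D1:**
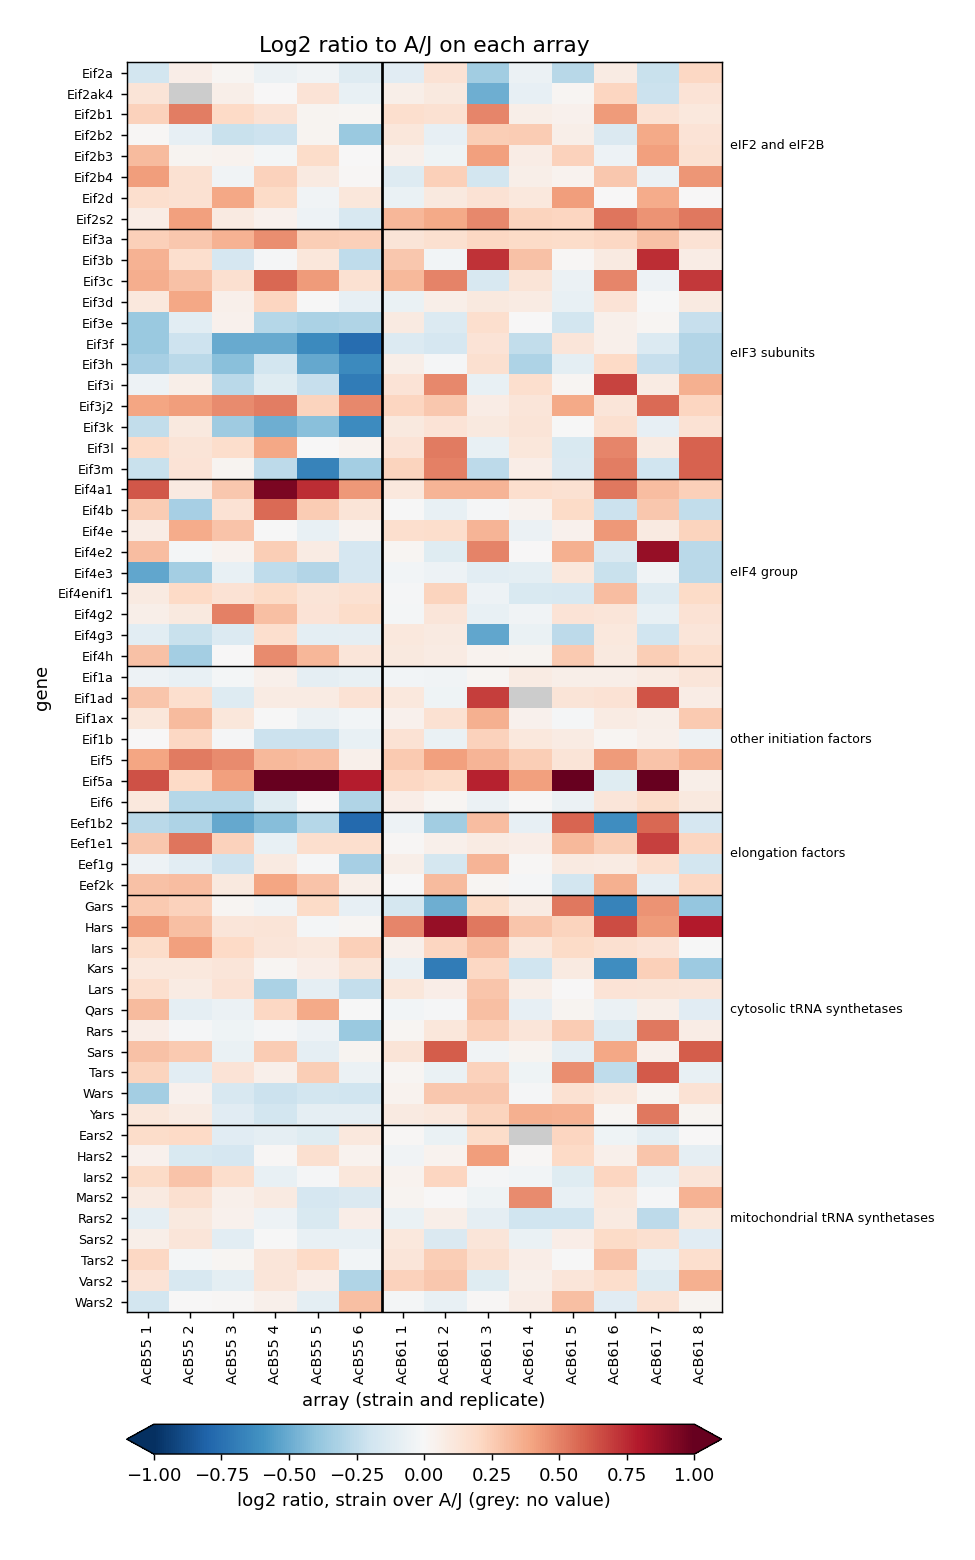
Log2 ratio of the strain to A/J for the 60 genes (vertical axis, grouped by role) on each of the 14 arrays (horizontal axis), with red above 0, blue below 0 and grey where there was no value. Eif5a, Eif4a1, Eif5 and Eif3j2 are red across the AcB55 arrays, where Eif3f, Eif3h and Eef1b2 are blue.

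Between the strains, 7 of the 60 genes (11.7%) were higher in AcB61 than in AcB55, where 5.29% of all features were and 12.3% passed in either direction. They were Eif3i, Eif3k, Eif3f, Hars, Eif3h, Eif2s2 and Wars. By limma 0 were lower after adjustment, against 6.98% of all features, although 3 were at an unadjusted p under 0.05. Of the 58 genes of cytosolic ribosomal proteins, 26 (44.8%) were higher in AcB61 than in AcB55 and 0 lower, with a median difference of 0.29. None of the 60 had array values that did not overlap between the strains, a pattern that 1.11% of all features showed with AcB61 higher and 1.56% with AcB61 lower. The count depended on single AcB55 arrays: it was 4 without AcB55 replicate 3, 3 without replicate 5 and 3 without replicate 6. It fell to 1, Eif3f, without the AcB55 arrays whose titles end in b, which are replicates 3 and 4.

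**Figure D2:**
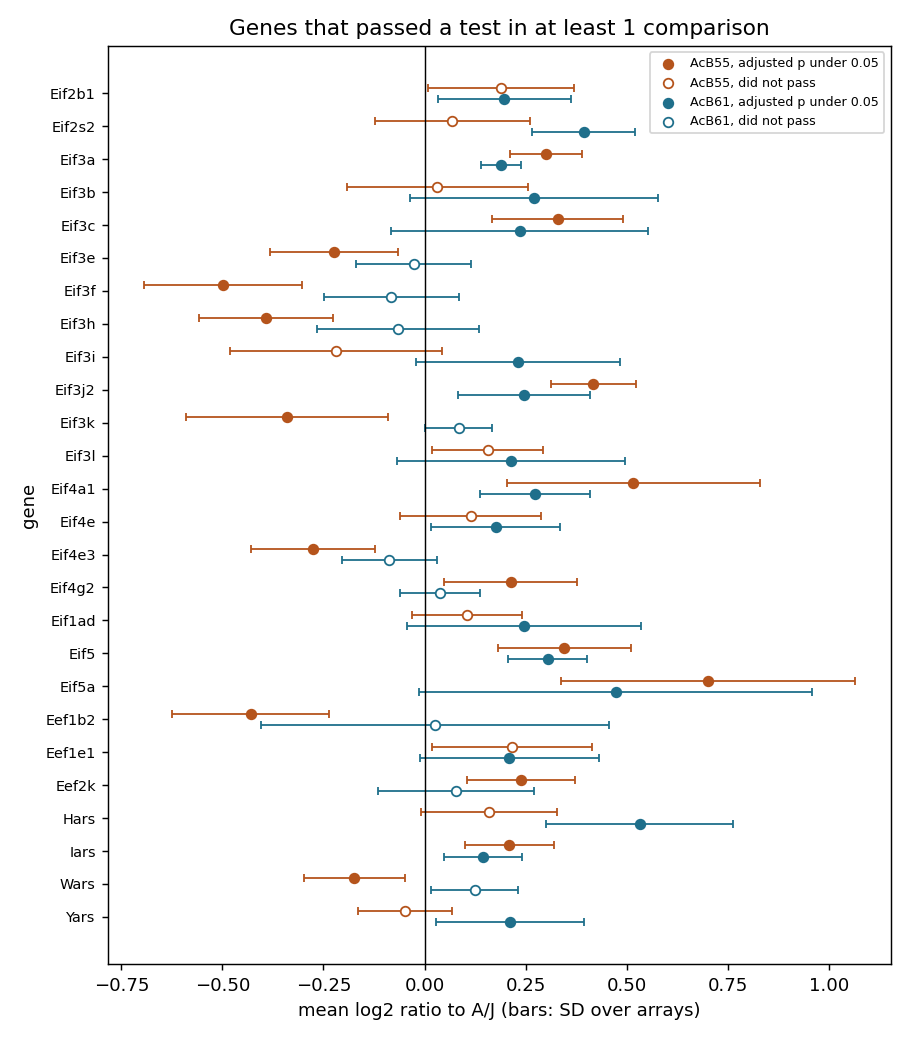
Mean log2 ratio to A/J (horizontal axis) with the SD over arrays as bars, for the genes that passed a test in at least 1 comparison (vertical axis), with 6 AcB55 arrays in orange and 8 AcB61 arrays in blue (7 for Eif1ad). Filled points had an adjusted p under 0.05, and all filled points of AcB61 lie right of 0 while those of AcB55 lie on both sides.

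Of the 8 genes grouped only by a symbol that begins with Eif2, 2 rose in AcB61 with a median of 0.13. In AcB55 0 passed the test, with a median of 0.08. The gene at the front was Eif2s2, which encodes the beta subunit of eIF2. Its log2 ratio in AcB61 was 0.22 on the lowest array, 0.42 at the median and 0.54 on the highest. In AcB55 it ranged from -0.16 to 0.41 with a median of 0.06. All 8 AcB61 arrays were above 0, while the AcB55 arrays lay on both sides of it and the ranges overlapped. The mean was 0.39 ± 0.13 (SD, n = 8) in AcB61 with an adjusted p of 8.3e-05 by limma, and 0.07 ± 0.19 (SD, n = 6) in AcB55. The strains differed by 0.33 ± 0.086 (SE) with an adjusted p of 0.0218, which was lost without AcB55 replicate 5 or 6 (up to 0.0798 over all settings). All 3 Eif2s2 probes were positive in AcB61, at 0.27, 0.40 and 0.51. The other gene called in AcB61 was Eif2b1, the alpha subunit of eIF2B, which recharges eIF2 with GTP. Its AcB61 mean was 0.20 ± 0.17 (SD, n = 8; adjusted p 0.0222), and the call was lost both without replicates 2, 6 and 8 (0.18, adjusted p 0.0906) and without replicates 3, 5 and 7 (0.18, adjusted p 0.0716). It was also lost without replicate 3 or 6. Eif2ak4, the kinase GCN2 that senses uncharged tRNA and phosphorylates eIF2, averaged 0.05 ± 0.09 (SD, n = 5) in AcB55 and -0.03 ± 0.23 (SD, n = 8) in AcB61 and passed neither test. Eif2a, Eif2b2, Eif2b3, Eif2b4 and Eif2d also passed no test.

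The subunits of eIF3, the largest initiation factor, split in AcB55: 3 of 12 rose (Eif3j2, Eif3c and Eif3a) and 4 of 12 fell (Eif3f, Eif3h, Eif3k and Eif3e). In AcB61, 6 of 12 rose (Eif3b, Eif3j2, Eif3c, Eif3i, Eif3l and Eif3a) and 0 fell. The medians over the 12 subunits were -0.09 in AcB55 and 0.17 in AcB61. On single arrays this median ran from -0.28 to 0.13 in AcB55 and from -0.03 to 0.18 in AcB61, so the strains overlapped. Between the strains 4 of 12 were higher in AcB61 (Eif3i, Eif3k, Eif3f and Eif3h), which makes up 4 of the 7 translation genes that differed. Eif3f, Eif3h and Eif3k were measured by 1 probe each.

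Eif3f, one of the subunits with an MPN domain, was the lowest translation gene in AcB55. Its AcB55 values were -0.76, -0.50 and -0.21 at the lowest, median and highest array, and its AcB61 values were -0.29, -0.13 and 0.14. Every AcB55 array was below 0, whereas 3 of the AcB61 arrays were above 0. The mean was -0.50 ± 0.20 (SD, n = 6) in AcB55 with an adjusted p of 6.5e-05 by limma, and -0.08 ± 0.17 (SD, n = 8) in AcB61 with an adjusted p of 0.395. The strains differed by 0.42 ± 0.094 (SE) with an adjusted p of 0.0094.

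Eif3h, the other subunit with an MPN domain, gave -0.64, -0.37 and -0.18 in AcB55 at the lowest, median and highest array. In AcB61 it gave -0.31, -0.05 and 0.20. All AcB55 arrays were below 0, and the strains overlapped between -0.31 and -0.18. The AcB55 mean was -0.39 ± 0.17 (SD, n = 6) with an adjusted p of 0.00078 by limma, and the difference between the strains was 0.33 ± 0.097 (SE) with an adjusted p of 0.037. That difference lost its call without AcB55 replicate 3, 5 or 6 or AcB61 replicate 1, 2, 3 or 6 (adjusted p up to 0.104).

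Eif3k, a small peripheral subunit, averaged -0.34 ± 0.25 (SD, n = 6) in AcB55 with an adjusted p of 0.0016 by limma. It was below 0 on every AcB55 array except replicate 2, which gave 0.10. In AcB61 it averaged 0.08 ± 0.08 (SD, n = 8), so that the difference of 0.42 ± 0.092 (SE) had an adjusted p of 0.0074. Eif3e averaged -0.22 ± 0.16 (SD, n = 6) in AcB55 with an adjusted p of 0.0157, and -0.03 ± 0.14 (SD, n = 8) in AcB61. Eif3i, which sits with Eif3b in a module of its own, averaged -0.22 ± 0.26 (SD, n = 6) in AcB55 and 0.23 ± 0.25 (SD, n = 8) in AcB61. The former did not pass, while the latter had an adjusted p of 0.0476 and the difference of 0.45 ± 0.12 (SE) one of 0.0263. Without AcB61 replicates 2, 6 and 8 the AcB61 mean of Eif3i was 0.07 (adjusted p 0.60) and the difference 0.29 (adjusted p 0.0803). The difference of Eif3i was also lost without AcB55 replicate 3, 5 or 6, as was the AcB55 call of Eif3e without replicate 1, 5 or 6 (adjusted p up to 0.0725 over all settings).

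The subunits called higher in both strains were Eif3j2, Eif3a and Eif3c. Eif3j2, from the copy of the gene for the loosely bound subunit eIF3j, gave 0.22, 0.45 and 0.51 at the lowest, median and highest AcB55 array. All AcB61 arrays were also above 0, from 0.07 to 0.57. Its means were 0.42 ± 0.11 (SD, n = 6; adjusted p 8.2e-05 by limma) and 0.25 ± 0.16 (SD, n = 8; adjusted p 0.0025). Transcripts of the near-identical copy Eif3j1 could bind the same spot, so the assignment is uncertain. Eif3a, the scaffold subunit, was above 0 on all 14 arrays and averaged 0.30 ± 0.09 (SD, n = 6) in AcB55 and 0.19 ± 0.05 (SD, n = 8) in AcB61, with adjusted p-values of 9.7e-05 and 0.0017. Eif3c, the other scaffold subunit, averaged 0.33 ± 0.16 (SD, n = 6; adjusted p 0.0196) in AcB55, a call lost without replicate 4 or 5 or without replicates 1 and 2 (adjusted p up to 0.102 over all settings). In AcB61 it averaged 0.24 ± 0.32 (SD, n = 8; adjusted p 0.0486), and Eif3l averaged 0.21 ± 0.28 (SD, n = 8; adjusted p 0.0474). Without AcB61 replicates 2, 6 and 8 these fell to 0.04 and 0.02, with adjusted p-values of 0.764 and 0.834. Eif3b, the RNA-binding subunit, averaged 0.27 ± 0.31 (SD, n = 8; adjusted p 0.0291) in AcB61, but 0.14 with an adjusted p of 0.219 without replicates 3, 5 and 7, and its call was lost without replicate 1, 3, 4 or 7. In AcB55 it averaged 0.03 ± 0.22 (SD, n = 6). Eif3d and Eif3m passed no test.

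**Figure D3:**
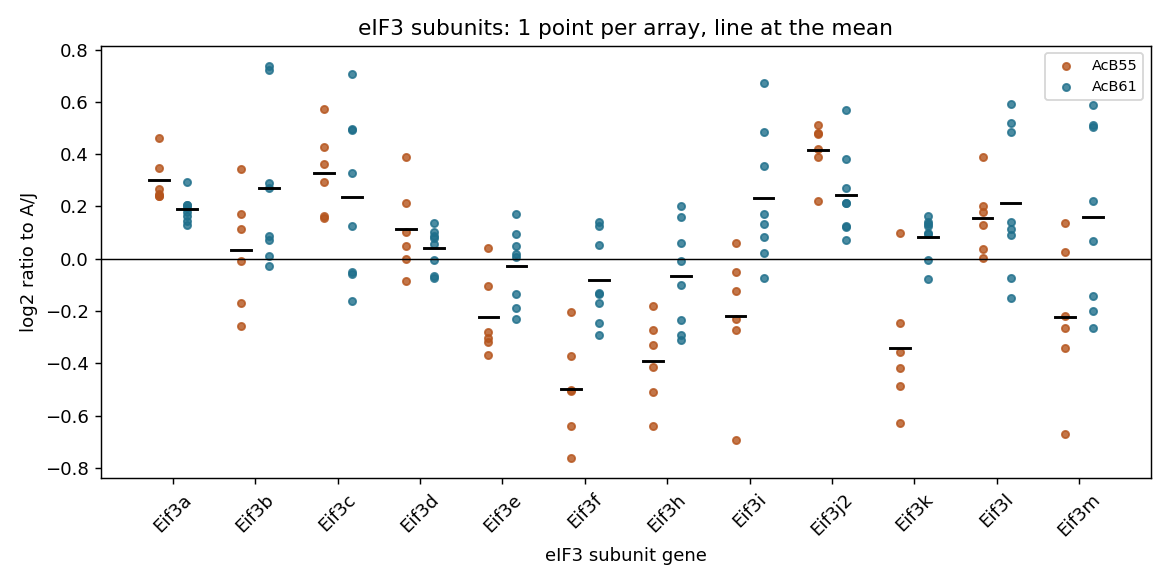
Log2 ratio to A/J (vertical axis) of the 12 eIF3 subunit genes (horizontal axis), with 1 point per array, AcB55 in orange, AcB61 in blue and a line at each mean. Eif3f and Eif3h lie below 0 on every AcB55 array, and Eif3a and Eif3j2 lie above 0 on every array of both strains.

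Ribosomal protein mRNAs and some translation factor mRNAs begin with a run of pyrimidines at the cap, through which mTOR signalling sets their translation. The 30 bases around the annotated start are shown for lower (Eif3f, Eif3k, Eef1b2) and higher (Eif3a, Eif3c, Eif4a1) genes of AcB55 that had an entry in the RefSeq promoter table. They come from the mouse build GRCm38.p6 and are written along the gene, and the capitals mark a C followed by at least 4 further pyrimidines that begins within 5 bases of the start.
Eif3f (chr7:108934400-108934429, plus strand): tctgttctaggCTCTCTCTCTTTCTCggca
Eif3k (chr7:28981874-28981903, minus strand): aaaacaaccggcgctggtgctgaaagcgcc
Eef1b2 (chr1:63176816-63176845, plus strand): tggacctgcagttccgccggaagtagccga
Eif3a (chr19:60790679-60790708, minus strand): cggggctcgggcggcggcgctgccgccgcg
Eif3c (chr7:126566352-126566381, minus strand): ctcacctgctcagagggactcggcagctta
Eif4a1 (chr11:69672409-69672438, minus strand): acaaagtaacgtcacgtcgagttgcagagc

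Of these 6 starts only that of Eif3f held such a run, which began 4 bases before the start. The table had an entry for 45 of the 60 genes. Some genes had several entries, and a gene counted here and below if any of its entries matched. The genes without an entry were Eef1g, Eif1a, Eif2b3, Eif3e, Eif3h, Eif3i, Eif3j2, Eif4e3, Eif4g2, Eif6, Hars, Hars2, Lars, Rars and Wars. A run was found for 12 of the 45 (26.7%), for 21.2% of all genes in the table and for 29 of 60 ribosomal protein genes (48.3%). Besides Eif3f these were Eif1ad, Eif2ak4, Eif2b2, Eif3b, Eif3l, Eif4enif1, Gars, Iars2, Qars, Rars2 and Wars2, of which Eif1ad, Eif3b and Eif3l rose in AcB61. A match describes the letters at an annotated start, and the starts used in these spleens were not measured.

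Among the factors of the eIF4 group, which act at the cap, 2 of 9 rose and 1 fell in AcB55, and 2 of 9 rose and 0 fell in AcB61. The medians were 0.15 and 0.04. Eif4a1, the RNA helicase that unwinds the leader, gave 0.09, 0.53 and 0.94 at the lowest, median and highest AcB55 array. In AcB61 it gave 0.10, 0.27 and 0.53. All 14 arrays were above 0. The mean was 0.52 ± 0.31 (SD, n = 6) in AcB55, a fold of 1.43, with an adjusted p of 0.00025 by limma, and 0.27 ± 0.14 (SD, n = 8) in AcB61 with an adjusted p of 0.0117. Without AcB61 replicates 2, 6 and 8 the AcB61 mean was 0.22 with an adjusted p of 0.101. The gene was spotted 3 times as 1 clone, and the spots gave 0.47 to 0.54 in AcB55 and 0.25 to 0.29 in AcB61. Its paralog Eif4a2 could bind the same spots.

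The cap-binding protein itself, Eif4e, averaged 0.18 ± 0.16 (SD, n = 8; adjusted p 0.0355 by limma) in AcB61 and 0.11 ± 0.17 (SD, n = 6; adjusted p 0.275) in AcB55. The AcB61 call was lost both without replicates 2, 6 and 8 (0.12, adjusted p 0.261) and without replicates 3, 5 and 7 (0.19, adjusted p 0.0743), as well as without any of replicates 1, 2, 3, 6 and 8. Its relative Eif4e3 fell in AcB55, with -0.52, -0.28 and -0.07 at the lowest, median and highest array. All 6 AcB55 arrays were below 0, and the mean was -0.28 ± 0.15 (SD, n = 6; adjusted p 0.0023), or -0.20 with an adjusted p of 0.0516 without replicates 1 and 2. In AcB61 Eif4e3 averaged -0.09 ± 0.12 (SD, n = 8) and did not pass. Eif4g2, a scaffold that lacks the site for eIF4E, averaged 0.21 ± 0.16 (SD, n = 6; adjusted p 0.0127) in AcB55 and 0.04 ± 0.10 (SD, n = 8) in AcB61. Without the arrays marked b its AcB55 mean was 0.12 with an adjusted p of 0.23, and the call was lost without replicate 3 alone. In AcB55, 2 spots of 1 Eif4g2 clone gave 0.30 and 0.34, while the other measured clone gave -0.0036 (adjusted p 0.98 by limma). Eif4b and Eif4h, helpers of the helicase, and Eif4e2, Eif4enif1 and Eif4g3 passed no test.

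The remaining initiation factors held the most changed gene of the 60. Of 7 genes 2 rose in AcB55 (Eif5a and Eif5) and 3 in AcB61 (Eif5a, Eif5 and Eif1ad), and 0 fell. Eif5a, the hypusine-carrying protein that frees ribosomes stalled between prolines and acts in elongation and termination, was the only one of the 60 to reach 1.5-fold, in AcB55. Its AcB55 arrays gave 0.20, 0.71 and 1.17 at the lowest, median and highest, and its AcB61 arrays gave -0.12, 0.31 and 1.17. The AcB55 mean was 0.70 ± 0.36 (SD, n = 6), a fold of 1.63, with an adjusted p of 0.0026 by limma. The AcB61 mean of 0.47 ± 0.49 (SD, n = 8) had an adjusted p of 0.0136. It rested on replicates 3, 5 and 7, at 0.77 to 1.17, while replicates 2, 6 and 8 lay at -0.12 to 0.19 and replicates 1 and 4 at 0.21 and 0.41. Without replicates 3, 5 and 7 the AcB61 mean was 0.15 with an adjusted p of 0.372.

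Eif5, which triggers GTP hydrolysis by eIF2 at the start codon, was steadier. It gave 0.05, 0.36 and 0.52 at the lowest, median and highest AcB55 array and 0.13, 0.31 and 0.43 in AcB61. All 14 arrays were above 0. The means were 0.34 ± 0.16 (SD, n = 6; adjusted p 0.00029 by limma) and 0.30 ± 0.10 (SD, n = 8; adjusted p 0.00029). The AcB61 call held without replicates 2, 6 and 8 and without replicates 3, 5 and 7. Eif1ad, named for a domain like that of eIF1A, averaged 0.25 ± 0.29 (SD, n = 7; adjusted p 0.0329) in AcB61, and 0.07 with an adjusted p of 0.514 without replicates 3, 5 and 7. Leaving out replicate 3 or 7 alone also ended its call. Eif6, which keeps the large ribosomal subunit apart until it is needed, averaged -0.15 ± 0.17 (SD, n = 6) in AcB55 and 0.05 ± 0.09 (SD, n = 8) in AcB61 and passed neither test. Eif1a, Eif1ax and Eif1b, the scanning factors and their relatives, passed no test.

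Of the 4 elongation genes, Eef1b2 fell and Eef2k rose in AcB55, and Eef1e1 rose in AcB61. Eef1b2, a subunit of the exchange factor that reloads eEF1A with GTP, gave -0.78, -0.37 and -0.27 at the lowest, median and highest AcB55 array. In AcB61 it ranged from -0.62 to 0.58 with a median of -0.07. All AcB55 arrays were below 0, while the AcB61 arrays spread to both sides and covered most of the AcB55 range. The AcB55 mean was -0.43 ± 0.19 (SD, n = 6; adjusted p 0.018 by limma) and the AcB61 mean 0.03 ± 0.43 (SD, n = 8; adjusted p 0.907). The AcB55 call was lost without replicate 6 and without the arrays marked b (adjusted p up to 0.108). The difference between the strains of 0.46 ± 0.16 (SE), the largest of the 60, had an adjusted p of 0.0767 and was not called. Eef2k, the kinase that inhibits eEF2, averaged 0.24 ± 0.13 (SD, n = 6; adjusted p 0.0179) in AcB55 and 0.08 ± 0.19 (SD, n = 8) in AcB61. The AcB55 call was lost without replicate 1, 2, 4 or 5, without the arrays marked b and with 1 probe per gene (adjusted p up to 0.128 over all settings). Its 2 probes rose by 0.42 and fell by 0.26 in AcB61, so the AcB61 mean joins opposite values. Eef1e1 belongs to the complex of several synthetases and is an elongation factor by its symbol only. Its AcB61 call was lost without replicate 5, 6, 7 or 8. Eef1g passed no test. In AcB61, 4 of its 5 measured probes were positive, 3 of them spots of 1 clone, and none of these passed. The other probe gave -0.24 there with an adjusted p of 0.0031 by limma. With 1 probe per gene Eef1g was called lower in AcB61.

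Among the 11 cytosolic synthetases, Iars rose and Wars fell in AcB55, and Hars, Yars and Iars rose in AcB61. The medians were 0.09 and 0.12. Hars, the histidine enzyme, was the highest translation gene in AcB61, with 0.22, 0.50 and 0.87 at the lowest, median and highest array. In AcB55 it gave -0.02, 0.12 and 0.41. All 8 AcB61 arrays were above 0, and 5 of the 6 AcB55 arrays were. The AcB61 mean was 0.53 ± 0.23 (SD, n = 8), a fold of 1.45, with an adjusted p of 3.0e-05 by limma, and the AcB55 mean 0.16 ± 0.17 (SD, n = 6) had an adjusted p of 0.18. The strains differed by 0.37 ± 0.10 (SE; adjusted p 0.0287), and by 0.23 with an adjusted p of 0.0945 without AcB61 replicates 2, 6 and 8. Leaving out AcB55 replicate 3, 4, 5 or 6 also ended the call of that difference.

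Wars, the tryptophan enzyme, which interferon induces, averaged -0.17 ± 0.12 (SD, n = 6; adjusted p 0.0281 by limma) in AcB55 and 0.12 ± 0.11 (SD, n = 8; adjusted p 0.0652) in AcB61. It was below 0 on 5 of 6 AcB55 arrays and above 0 on 7 of 8 AcB61 arrays, and the difference of 0.30 ± 0.072 (SE) had an adjusted p of 0.0132. The AcB55 call was lost without any of replicates 1, 3, 4, 5 and 6, and without the arrays marked b the AcB55 mean had an adjusted p of 0.133 and the difference one of 0.0614. Iars, the isoleucine enzyme, averaged 0.21 ± 0.11 (SD, n = 6; adjusted p 0.0061) in AcB55 and 0.14 ± 0.10 (SD, n = 8; adjusted p 0.0237) in AcB61. Without AcB61 replicates 3, 5 and 7 the latter was 0.11 with an adjusted p of 0.19, and without replicates 2, 6 and 8 it was 0.16 with an adjusted p of 0.0517. The AcB61 call of Iars was also lost without replicate 2 or 3, and its AcB55 mean was 0.17 with an adjusted p of 0.0688 without replicates 1 and 2. Yars, the tyrosine enzyme, averaged 0.21 ± 0.18 (SD, n = 8; adjusted p 0.0113) in AcB61 and -0.05 ± 0.12 (SD, n = 6) in AcB55. Its AcB61 mean was 0.12 with an adjusted p of 0.181 without replicates 3, 5 and 7. Gars and Kars, which also supply the mitochondrial enzymes for their amino acids, and Lars, Qars, Rars, Sars and Tars passed no test.

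The 9 mitochondrial synthetases (Ears2, Hars2, Iars2, Mars2, Rars2, Sars2, Tars2, Vars2 and Wars2) passed no test in any of the 3 comparisons. Their median was 0.01 in AcB55 and 0.04 in AcB61, and the median of the 9 genes on each array stayed between -0.08 and 0.12 over all 14 arrays. The 2 probes of Rars2 gave 0.10 and -0.28 in AcB61, so its mean joins opposite values. The lower probe alone had an adjusted p of 0.0018 by limma in AcB61 and 0.0208 between the strains. In all, 34 of the 60 genes passed no test. Their means lay between -0.22 and 0.17 in AcB55 and between -0.18 and 0.21 in AcB61.

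Many cytosolic synthetase genes are targets of Atf4, the factor that responds to amino acid shortage and binds composite elements of the type TGATGNAA. The promoters of 4 of the 15 synthetase genes with an entry held TGATGNAA on one strand or the other in the 250 bases before and 50 after the start: Yars, Gars, Iars and Tars (26.7%). It was found in 4.51% of all genes in the table. The 30 bases around each match are shown along the gene, with the match in capitals, since Yars and Iars are among the synthetases that rose.
Yars (chr4:129189895-129189924, plus strand): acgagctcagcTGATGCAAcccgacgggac
Iars (chr13:49682126-49682155, plus strand): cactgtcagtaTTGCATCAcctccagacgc
Gars (chr6:55037960-55037989, plus strand): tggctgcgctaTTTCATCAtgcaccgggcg
Tars (chr15:11399655-11399684, minus strand): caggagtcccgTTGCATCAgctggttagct

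In Iars, Gars and Tars the match lay on the opposite strand and is therefore printed as its reverse complement. Among the initiation and elongation factors only 1 of 30 genes with an entry, Eef2k, held the element. Of the 4 synthetase genes with the element, Iars rose in both strains, Yars in AcB61 only, and Gars and Tars passed no test. Hars, the highest translation gene in AcB61, had no entry. The binding of Atf4 was not measured here, and its part in these values was not tested. The Atf4 gene itself was higher than A/J by 0.28 ± 0.10 (SD, n = 6; adjusted p 0.0104 by limma) in AcB55 and by 0.46 ± 0.23 (SD, n = 8; adjusted p 5.4e-05) in AcB61. The 14 measured genes of the amino acid response, Atf4 among them, had medians of -0.04 in AcB55 and 0.04 in AcB61.

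The letters CACGTG, an E-box that Myc and related factors can bind, read alike on both strands. They were found for 12 of the 45 genes with an entry (26.7%). The share was 8.09% of all genes, 8.91% of protein-coding genes and 10% of ribosomal protein genes. The 12 genes were Ears2, Eef2k, Eif1b, Eif3a, Eif3f, Eif3k, Eif4a1, Eif4e, Eif4h, Eif5a, Iars and Tars. They included 5 of the 7 genes with an entry that rose in AcB55 (71.4%: Eef2k, Eif3a, Eif4a1, Eif5a, Iars). Of the 3 with an entry that fell, 2 held it (66.7%: Eif3f, Eif3k). Among the genes with an entry that rose in AcB61, Eif3a, Eif4a1, Eif4e, Eif5a and Iars held it. Eef1e1, Eif1ad, Eif2b1, Eif2s2, Eif3b, Eif3c, Eif3l, Eif5 and Yars, which also rose there, had an entry without it. Binding of Myc or related factors was not measured, and the part of the E-box in these values was not tested. No E-box overlapped a TGATGNAA match in these promoters. The windows of the most raised genes, Eif5a and Eif4a1, and of the most lowered one, Eif3f, are given with the E-box in capitals.
Eif5a (chr11:69921443-69921472, minus strand): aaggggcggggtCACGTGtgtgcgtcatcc
Eif4a1 (chr11:69672595-69672624, minus strand): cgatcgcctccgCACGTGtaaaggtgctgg
Eif3f (chr7:108934335-108934364, plus strand): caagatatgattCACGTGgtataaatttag

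The AcB61 values of single genes showed the split between its arrays directly. Of the 60 genes, 15 had replicates 3, 5 and 7 all above replicates 2, 6 and 8 (25.0%, as for 25.0% of all features with a value on these arrays), and 19 had the reverse (31.7%, against 30.4%). The share was thus that of the whole array. For Gars, replicates 3, 5 and 7 gave 0.19 to 0.52, whereas the other set gave -0.67 to -0.39. Kars gave 0.09 to 0.24 and -0.70 to -0.36, and Eef1b2 gave 0.31 to 0.58 and -0.62 to -0.17. The reverse held for Eif3m, at -0.26 to -0.14 and 0.50 to 0.59, and for Sars, at -0.09 to 0.05 and 0.39 to 0.60. These 5 genes were chosen after their values were seen, and none was called over all 8 AcB61 arrays. What sets these arrays apart is not given in the labels and was not tested.

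**Figure D4:**
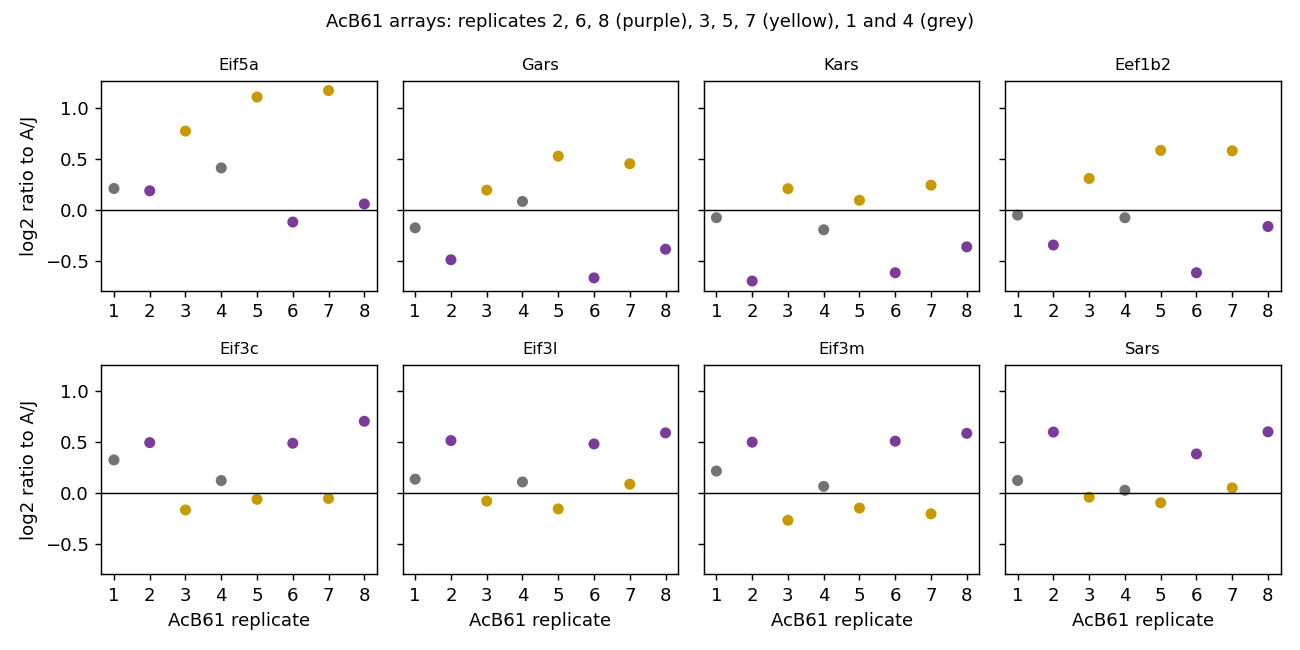
Log2 ratio to A/J (vertical axis) of 8 genes on each AcB61 array (horizontal axis, replicate), with replicates 2, 6 and 8 in purple, 3, 5 and 7 in yellow and 1 and 4 in grey. Eif5a, Gars, Kars and Eef1b2 are higher on the yellow arrays, and Eif3c, Eif3l, Eif3m and Sars on the purple ones.

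Without AcB61 replicates 2, 6 and 8, 14 genes were higher than A/J in AcB61, 9 of them among the 17, and 2 were lower (Eif2a and Rars2). Without replicates 3, 5 and 7, 13 were higher, again with 9 among the 17, and 3 were lower (Eef1b2, Gars and Kars). Hars, Eif2s2, Eif5, Eif3j2 and Eif3a were called higher in both of these subsets.

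Of the 60 genes, 41 were measured by 1 probe and 19 by more, 91 probes in all. The 4 Eif3a probes were all positive in both strains, from 0.14 to 0.60 in AcB55 and from 0.12 to 0.26 in AcB61. The 3 measured Eif5 probes gave 0.18, 0.32 and 0.53 in AcB55 and 0.43, 0.45 and 0.03 in AcB61. For Eef2k and Eif4enif1, probes passed the test in opposite directions in AcB61, and for no gene did they do so in AcB55 or between the strains. Eif4enif1, whose protein carries eIF4E into the nucleus, had AcB61 probe means of -0.27, 0.12 and 0.24. With 1 probe per gene, the calls of Eif5 in AcB55 (0.18, adjusted p 0.109) and of Eif3a in AcB61 (0.15, adjusted p 0.0766) were lost. Eif6 had probe means of 0.00 and -0.27 in AcB55, the latter with an adjusted p of 0.0096 by limma. With 1 probe per gene Eif6 was called lower in AcB55 than in A/J, and higher in AcB61 than in AcB55. Single probes of other genes that passed no test did pass. These were probes of Eif1b (-0.19) and Eif4enif1 (0.31) in AcB55, and of Eif1ax (0.23), Eif4h (0.22) and Sars (0.27) in AcB61.

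**Figure D5:**
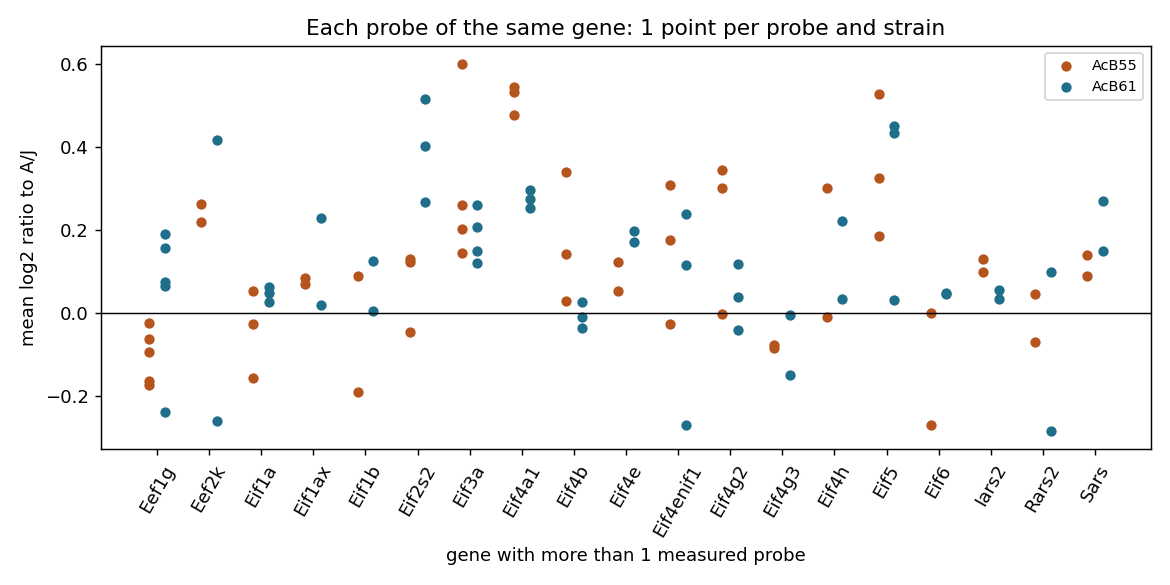
Mean log2 ratio to A/J (vertical axis) of every measured probe of the 19 genes with more than 1 probe (horizontal axis), with AcB55 in orange and AcB61 in blue. The probes of Eif4a1 lie close together and those of Eif2s2 all lie above 0 in AcB61, while those of Eef2k, Eif4enif1 and Rars2 lie on both sides of 0.

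Other genes of cytosolic translation were listed beside the 60. Of 24 measured, 6 were higher and 1 lower in AcB55 (25.0% and 4.17%), and 7 were higher and 0 lower in AcB61 (29.2% and 0%). Pabpc4 and Pabpc1 encode poly(A)-binding proteins, which join the mRNA tail to the cap complex, and Pabpc4 averaged higher than each of the 60 genes in both strains. Pabpc4 averaged 1.04 ± 0.18 (SD, n = 6) in AcB55 and 0.69 ± 0.35 (SD, n = 7) in AcB61, and Pabpc1 averaged 0.69 ± 0.11 (SD, n = 6) and 0.49 ± 0.30 (SD, n = 8). All 4 means passed the test by limma. Farsa, the alpha subunit of the phenylalanine synthetase, averaged 0.15 ± 0.22 (SD, n = 6) in AcB55 and 0.81 ± 0.52 (SD, n = 8) in AcB61. Its difference of 0.66 had an adjusted p of 0.0331. Aimp1, a scaffold of the synthetase complex, fell in AcB55 at -0.30 ± 0.20 (SD, n = 6) and differed between the strains by 0.38 (adjusted p 0.0482). Aimp2, another scaffold, averaged 0.36 ± 0.16 (SD, n = 8) in AcB61 and rose there. Paip2, which holds poly(A)-binding protein off the mRNA, averaged 0.43 ± 0.31 (SD, n = 6) in AcB55 and -0.06 ± 0.10 (SD, n = 8) in AcB61, with a difference of -0.49 (adjusted p 0.0081). Larp1, which binds mRNAs with a pyrimidine run, was lower in AcB61 than in AcB55, with a difference of -0.28 (adjusted p 0.0262), and passed the test against A/J in neither strain. The 5 measured mitochondrial translation factors passed no test.

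Of 11 measured genes of translation control, 3 rose and 1 fell in AcB55 and 3 rose in AcB61. Ppp1r15a and Ppp1r15b, which bring a phosphatase to eIF2 and undo its phosphorylation, averaged 0.53 ± 0.20 (SD, n = 6) and 0.31 ± 0.14 (SD, n = 6) in AcB55. In AcB61 they averaged 0.46 ± 0.11 (SD, n = 6) and 0.25 ± 0.28 (SD, n = 8), and all 4 means passed the test by limma. Fmr1, a repressor of translation, rose in AcB55 with 0.37 ± 0.14 (SD, n = 6), and Pdpk1, a kinase upstream of mTOR, fell there with -0.19 ± 0.10 (SD, n = 6). Tsc1, an inhibitor of mTOR, rose in AcB61 with 0.23 ± 0.16 (SD, n = 8).

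Of 14 measured genes of the amino acid response, 3 rose and 1 fell in AcB55 and 2 rose in AcB61. Beside Atf4, Asns (asparagine synthetase) averaged 0.47 ± 0.26 (SD, n = 6) and Slc3a2, a chain of amino acid transporters, 0.33 ± 0.26 (SD, n = 6) in AcB55. Vldlr, a lipoprotein receptor, fell there with -0.35 ± 0.24 (SD, n = 6). Shmt2, the mitochondrial serine enzyme, averaged 0.28 ± 0.29 (SD, n = 8) in AcB61 and rose, and it differed between the strains by 0.38 (adjusted p 0.0427). The medians of this list, -0.04 in AcB55 and 0.04 in AcB61, were near that of all features.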

How the data were processed

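The deposited table holds log2 ratios of 2 channels on cDNA arrays, 1 column per array (base 2 assumed). Per the labels' protocols, RNA was extracted with TRIzol, total or poly(A) RNA was labelled with Cy3 or Cy5, and images were scanned with ScanArray, quantified with QuantArray 3.0 and imported into GeneSpring. The text then ends mid-sentence at the dye swap; how the authors normalized was not given in the sources used here. Signal intensities were not used, so spot strength is unknown.

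Array medians lay between -0.0205 and 0.0087, and values were used as deposited. Probes with 1 gene symbol in the platform annotation were averaged per gene. limma 3.58.1 in R 4.3.3 (lmFit, a mean per strain and a shared spread over 14 arrays, eBayes) was run on all 13045 features, two-sided. Its p-values were adjusted per comparison over all features (Benjamini-Hochberg, threshold 0.05). The test was first tried on simulated data with noise drawn independently for each array, unlike the sets of arrays seen in AcB61. It found 55 of 100 simulated log2 changes of 0.3 in AcB55 and 94 of 100 of 0.6. Python 3.11.15, numpy 2.4.6, pandas 2.3.3 and matplotlib 3.10.9 served for tables and figures. Promoter sequences are RefSeq's (GRCm38.p6).

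The genes and gene lists were chosen with earlier results of these data known. Genes that passed are named, up to 12 per direction and comparison, with array values for up to 4 per direction that kept 1 sign on every array. Eef1a1, Eef2, Eif4e, Eif4a1, Eif4g1, Eif2s1, Eif2ak2, Eif2ak3, Eif2ak4, Eif5a, Eif6 and Eif4ebp1 are named where measured, and up to 4 genes of each other list. Array ranges of genes between the strains, values of single probes and the values without AcB61 replicates 2, 6 and 8 or 3, 5 and 7 were added after seeing the data. Alternatives were 1 probe per gene, centring, scaling, stricter filtering, other estimates of the spread, title numbers as a random effect, and leaving out arrays.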

Additional observations from a re-analysis of the deposited data

Results flagged for a closer look

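In 120 groups of arrays (each gene in each strain), 5 held an array far from the others by Dixon's criterion, where chance gives about 1 in 20. Eef1e1 was 0.68 on AcB61 replicate 7, against 0.01 to 0.33 on the others, and its AcB61 call was lost without that array. Eif3a was 0.29 on AcB61 replicate 7, against 0.13 to 0.21. Eif4g3 was 0.17 on AcB55 replicate 4, against -0.22 to -0.09. Qars was 0.30 on AcB61 replicate 3, against -0.11 to 0.06. Rars was -0.37 on AcB55 replicate 6, against -0.05 to 0.06.

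For 7 genes the strains' ratios to A/J differed by the limma test of the difference itself, all with AcB61 higher: Eif3i by 0.45, Eif3k by 0.42, Eif3f by 0.42, Hars by 0.37, Eif3h by 0.33, Eif2s2 by 0.33 and Wars by 0.30. Of these, Eif3k, Eif3i and Wars had means of opposite sign in the strains, and Eif3f, Hars, Eif3h and Eif2s2 had means of the same sign.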

How the results depend on the processing

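Each count and named gene was recomputed under 26 alternatives, of which leaving out AcB61 replicates 2, 6 and 8 or 3, 5 and 7 was chosen after seeing the data. In AcB55, Eif3a, Eif3f, Eif3h, Eif3j2, Eif3k, Eif4a1 and Eif5a passed under all of them, in AcB61 Eif2s2, Eif3j2, Eif5 and Hars, and between the strains Eif3f. The AcB61 calls of Eif3c, Eif3i and Eif3l were lost under 17, 13 and 16. The 7 lower genes of AcB55 became 4 without AcB55 replicate 6. The 17 of AcB61 became 11, all higher, with the spread of AcB61 alone, and lower genes appeared with 1 probe per gene (2), without AcB61 replicates 2, 6 and 8 (2) and without 3, 5 and 7 (3). Between the strains the total was 14 with array weights (12 higher, 2 lower), 11 with title numbers as a random effect (all higher, within-number correlation -0.14), 18 at an unadjusted p (15 higher, 3 lower), 1 without the arrays marked b, and 12 without AcB61 replicates 2, 6 and 8 (3 lower) or 3, 5 and 7 (4 lower). With 1 probe per gene 1 was lower. Leaving out single arrays gave a total, and a number higher, of 3 to 9, with 0 to 1 lower. Values near 0 changed sign. In AcB55, Eif2s2 was -0.00024 without replicate 2 (-0.00024 to 0.11 over single arrays) and -0.020 without replicates 1 and 2, Eif3b was -0.031 without replicate 1 (to 0.090) and -0.081 without both, and Yars was 0.0026 without the arrays marked b. In AcB61, Eef1b2 was -0.014, -0.054 and -0.053 without replicate 3, 5 or 7 (to 0.12), and -0.25 (adjusted p 0.0358) without all of them. Eif2ak4 was 0.032 without replicate 3 (from -0.068) and 0.084 without 3, 5 and 7, Eif3e was 0.0020 without replicate 8 (from -0.056) and 0.020 without 2, 6 and 8, Eef2k was -0.051 without 2, 6 and 8, and Eif4g2 was -0.042 with 1 probe and -0.014 without 2, 6 and 8. The cause was not tested. No paired analysis was possible because the labels give no replicate numbers, and those used here follow the order of deposit.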
